A study of Mus musculus with 369 samples.

Results

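The cells described here are unselected microglia of Trem2 knockout and wild-type mouse brains, that is, single cells sorted for low CD45 and positive CD11b with no further marker. They were taken by their plate and gate labels, and had to pass all 3 quality criteria given with the labels. This left 90 of 93 cells labelled TREM2_KO and 78 of 90 labelled wild type, together 168 of 183 unselected cells and of 334 passing cells. The other passing cells, 76 knockout and 90 wild-type, came from plates gated in addition on the surface proteins Gpnmb and Clec7a and are called gated. Both genotypes were male C57BL/6J-background mice at postnatal day 7, and no treatment is named for either. The design of the knockout allele, its breeding and the number of animals are not given in these sources. Each of the 4 groups filled 1 plate, so each counts as 1 sample. Genotype, plate and animal cannot be told apart, no difference below has a replicate check, and no test between groups was possible.

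Trem2 is a receptor that microglia and other macrophages carry at the surface, where it binds lipids, lipoproteins and debris of dying cells. It has no signalling tail of its own and passes its signal to the adaptor Tyrobp, which recruits the kinase Syk and, downstream, phospholipase C gamma and PI3 kinase. In disease models Trem2 is known for its part in the step from homeostatic microglia to a lipid-handling, lysosome-rich state, and in the first postnatal week microglia divide and clear dying cells and myelin precursors.

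RNA was read with Smart-seq2, which amplifies the RNA of 1 cell per well along the whole transcript and carries no molecular identifiers. Counts were summed over the cells of a group and scaled to CPM, the usual unit of counts relative to all gene counts of the group. A difference is the log2 ratio of knockout to wild-type CPM, each plus 1 CPM, and intervals are exact at 95%. Those of levels and log2 ratios treat reads as independent. Amplified reads are not, so these intervals are too narrow even for counting error. Those of shares of cells treat the cells of 1 plate as independent and do not cover differences between animals or plates. Gene counts per cell had a median of 494746 in wild-type and 649634 in knockout cells, and the knockout cells had fewer detected genes (median 2184 against 2607.5) and fewer gene counts per count of added spike-in RNA (median 18.1 against 24.9). With spike-in scaling the median log2 of all measured genes was -0.45 in place of 0.03, so every difference below is relative to the other genes. In sums over cells, fewer cells of a kind and less RNA per cell cannot be told apart.

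The cells carried the markers of microglia at like levels in both genotypes. All 9 microglia markers were measured, and 0 differed 2-fold. Of all measured genes 19.8% differed at least 2-fold, but of those at 100 CPM or more 5.43%. The count of 0 among 9 markers is therefore not read as a result. The purinergic receptor P2ry12 was at 5418 CPM in knockout and 5263 CPM in wild-type cells, the fractalkine receptor Cx3cr1 at 11349 and 10567 CPM, and the surface protein Tmem119 at a log2 difference of -0.08. After each cell was thinned to 100000 gene counts, 85 of 90 knockout and 76 of 78 wild-type cells held 7 or more of these 9 markers. The other 5 knockout and 2 wild-type cells stand apart, with 405 to 1675 and 1072 to 1348 detected genes, and 1 of the knockout cells held 0 of the 9 markers. Markers of neurons and of pericytes and fibroblasts had 0 measured members. Neutrophil markers had 2, and those of monocytes, lymphocytes, astrocytes and endothelium 1 each, with 0 called. Of the oligodendrocyte lineage 2 were measured and 1 was higher in knockout (log2 1.51). That whole list held 0.0161% of counts in knockout and 0.00983% in wild type. Border-associated macrophage markers had 2 measured members (Mrc1 and Folr2) and 0 called, and 4 of 90 knockout and 1 of 78 wild-type cells held 3 or more of that list.

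Trem2 itself was lower in knockout cells but not absent. Its level was 229 CPM (225 to 233) in knockout and 1115 CPM (1105 to 1126) in wild-type cells, a log2 difference of -2.28 (-2.31 to -2.25). Over single cells the lowest, median and highest values were 0, 195 and 1197 CPM in knockout and 0, 985 and 3669 CPM in wild-type cells. The 2 ranges overlap, yet 2 of 90 knockout cells reached the wild-type median and 1 of 78 wild-type cells lay at or below the knockout median. No Trem2 count was seen in 26 of 90 knockout cells and in 1 of 78 wild-type cells. In 92.1% of all knockout and wild-type cell pairs, compared after thinning, the knockout cell was the lower one. Whether the remaining counts come from the part of the gene left by the knockout cannot be read from counts per gene. Trem2 (ENSMUSG00000023992.14) lies on chromosome 17 from 48346401 to 48354147 in mm10.

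Tyrobp, the adaptor of Trem2, was at 1077 CPM (1068 to 1086) in knockout and 1014 CPM (1004 to 1024) in wild-type cells, a log2 difference of 0.09. The medians over single cells were 1017 and 934 CPM, and the knockout cell was higher in 52% and lower in 47.6% of cell pairs. The level of the adaptor thus overlapped almost wholly between genotypes in the plot of levels per cell, where that of the receptor did not.

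**Figure D1:**
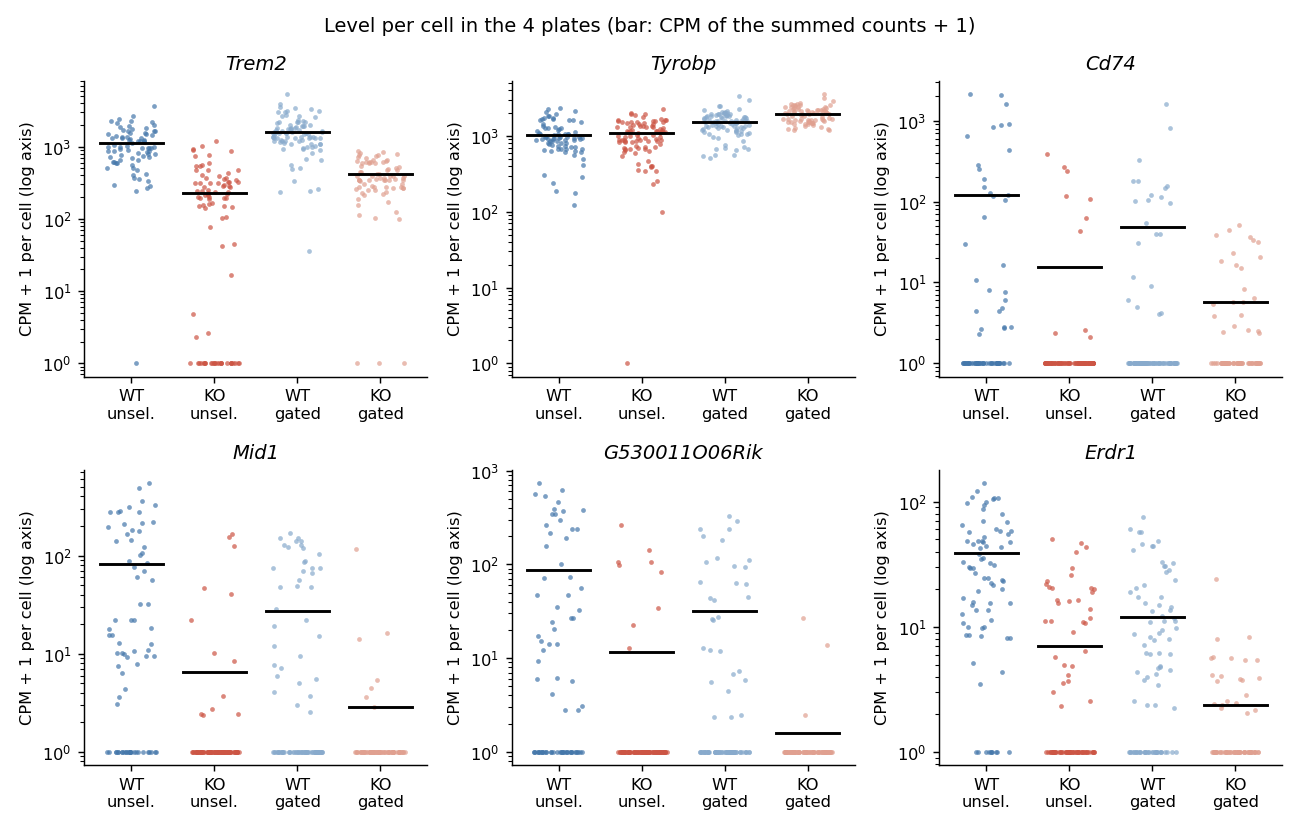
CPM + 1 per cell on a log axis for Trem2, Tyrobp, Cd74, Mid1, G530011O06Rik and Erdr1 in the 4 plates (WT wild type, KO knockout, unsel. unselected); points are cells and bars are the CPM of the summed counts + 1. Trem2 is at 229 CPM in knockout and 1115 CPM in wild-type unselected cells with Tyrobp at 1077 and 1014 CPM, and most knockout cells lie at 0 for Mid1 and G530011O06Rik in both gates. Zeros are common in wild-type gated cells too, where after thinning Mid1 was detected in 35.6% and G530011O06Rik in 25.6% of cells.

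Genes that carry the Trem2 signal stayed close to the level of all genes. Of 24 receptor complex and signalling genes 22 were measured, 1 of them at least 2-fold higher and 4 at least 2-fold lower, with a median log2 of 0.02 (0.03 over all measured genes). Over all 7690 measured genes 747 (9.71%) were at least 2-fold higher and 776 (10.09%) at least 2-fold lower. Besides Trem2 the lower ones were the paracaspase Malt1 (3.95 against 23.8 CPM, log2 -2.32), the ubiquitin ligase Cblb (log2 -1.37, but 0.96 without the cells with 5 or more G2/M genes) and the PI3 kinase subunit Pik3cd (72.4 against 181 CPM, log2 -1.31), and the higher one was the adaptor Card9 (74.6 against 31.5 CPM, log2 1.22). The kinase Syk (81 against 90.1 CPM) and Plcg2 (211 against 262 CPM) had log2 differences of -0.15 and -0.31, and the phosphatase Inpp5d one of -0.34. Of the Trem2 ligand list 5 of 11 were measured and 0 called. Apoe, the lipoprotein that binds Trem2, was at 11028 CPM in knockout and 11090 CPM in wild-type cells.

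How many genes passed the fold depended on their level. A gene was measured at 5 CPM or more with a count in 10% or more of the thinned cells of 1 group, and called when the ratio was 2-fold or more with the same sign by mean CPM per cell. This is a rule of size. Of genes below 100 CPM in both groups 24.6% were called, of the 1935 genes at 100 CPM or more 5.43% (67 higher and 38 lower), and of the 86 genes at 1000 CPM or more 0 were higher and 1 was lower. That gene was Trem2. The 10 genes with the highest level, among them Apoe, Cx3cr1, Ctsd and Csf1r, held 0 called members, and the largest log2 difference among these 10 was that of the ribosomal precursor Rn45s, at 136350 CPM in knockout and 162148 CPM in wild-type cells (log2 -0.25).

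**Figure D2:**
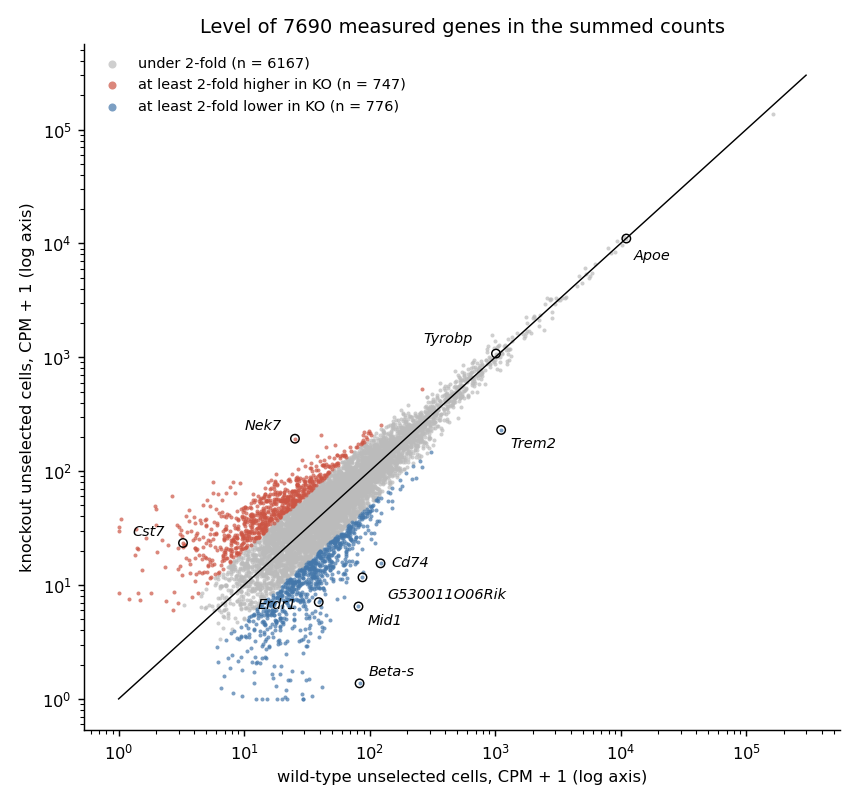
Level of 7690 measured genes in knockout (y axis) and wild-type (x axis) unselected cells, CPM + 1 on log axes, with 747 genes at least 2-fold higher in red and 776 at least 2-fold lower in blue. The called genes are spread over low levels, and Trem2 alone lies off the diagonal above 1000 CPM.

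The gated plates hold other cells of the same 2 genotypes, so they show which differences were seen again. In them 9.30% of 8502 measured genes were at least 2-fold higher and 7.96% at least 2-fold lower in knockout cells. Of the 747 genes higher in unselected knockout cells 707 were measured in gated cells, where 67 (9.48%) were higher too and 71 (10.0%) were lower. Of the 776 lower genes 649 were measured, and 76 (11.7%) were lower again while 78 (12%) were higher. In both directions the share called the opposite way was as large as the share called the same way. With 20 CPM and 25% detection required in both comparisons, an alternative added after seeing the data, 6 of 136 higher genes (4.41%) were higher again and 2 were lower, where 5.56% of all gated genes were higher. At the same limits 11 of 125 lower genes (8.8%) were lower again and 6 were higher, where 3.63% of all gated genes were lower. Among 20 genes called the same way in both comparisons and detected in 25% or more of the cells of 1 group in each, 13 were lower and 7 higher in knockout. This selection was made after the values were seen. Ranked by the smaller of their 2 differences, the lower ones were led by Mid1, followed by G530011O06Rik, Erdr1 and Trem2, then Pou2f2, a transcription factor of lymphoid and myeloid cells (11.3 against 44.9 CPM in unselected cells, log2 -1.90, gated log2 -1.69). The others were Atxn7l1, Mapkap1, Tab1, Rbm28, Pcif1, Lrrc14, Tcp11l2 and Fam65b, with log2 differences from -1.73 to -1.02 in unselected cells. Detection did not always go along: in gated cells Rbm28 (31.6% against 20%), Lrrc14 (26.3% against 23.3%) and Fam65b (31.6% against 27.8%) were detected in more knockout cells. Of the 7 higher genes the deubiquitinase Usp25 stood first (81.7 against 16.5 CPM, log2 2.24, gated log2 1.88). Ndufs1, a subunit of respiratory complex I, had a log2 of 1.25 and a gated log2 of 1.21, and Aig1, Scaf8, Tfpi, Nup85 and 6430527G18Rik lay between 1.06 and 1.64 in unselected cells. Nup85 was nevertheless detected in fewer knockout than wild-type unselected cells (23.3% against 25.6%).

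**Figure D3:**
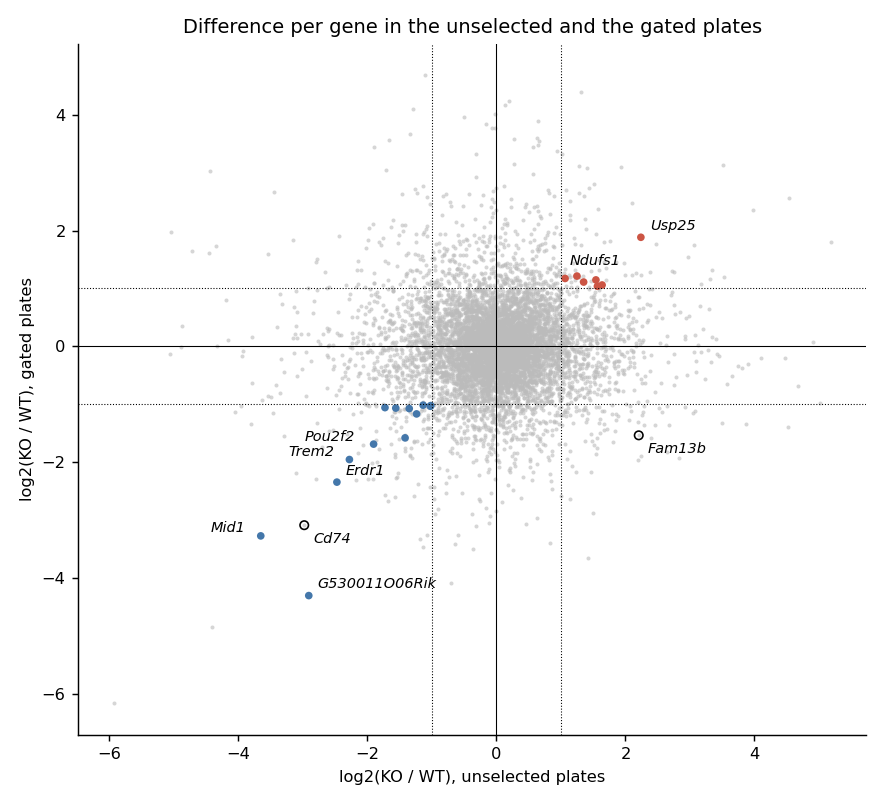
log2 of knockout over wild type per measured gene in unselected plates (x axis) and gated plates (y axis), dotted lines at 2-fold. Blue and red points are the 13 lower and 7 higher genes called in both and detected in 25% of cells, and open circles mark Cd74 and Fam13b; Mid1, G530011O06Rik, Erdr1 and Trem2 lie far out in the lower left while the cloud of all genes has no slope to the eye.

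3 of the first 4 genes in that ranking sit side by side at the end of the X chromosome. Mid1 encodes a ubiquitin ligase of microtubules and lies on X from 169685199 to 170005736 in mm10. G530011O06Rik is a non-coding transcript inside Mid1 on the opposite strand (X from 169975043 to 169978917). Erdr1, annotated under the name Gm21887, begins 3.92 kb past the end of Mid1 (X from 170009659 to 170019281). The chromosome end is a region that X and Y share, and RefSeq places a second copy of G530011O06Rik on Y. That copy starts inside the pseudogene Mid1-ps1 (Y from 90753057 to 90763485), on the opposite strand. The sequences at the start of both copies are shown because they show how alike the 2 places are. They come from RefSeq (GRCm38.p6), run from 250 bases before to 50 after the start, and capitals mark the bases that have no equal partner in the other copy.
X copy, chrX:169978868-169979167, minus strand: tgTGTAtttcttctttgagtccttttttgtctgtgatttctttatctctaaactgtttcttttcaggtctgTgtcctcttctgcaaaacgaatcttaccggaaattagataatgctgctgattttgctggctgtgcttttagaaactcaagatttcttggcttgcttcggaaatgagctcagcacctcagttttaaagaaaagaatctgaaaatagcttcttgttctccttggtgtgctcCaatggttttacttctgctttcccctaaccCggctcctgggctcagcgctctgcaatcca
Y copy, chrY:90755001-90755300, minus strand: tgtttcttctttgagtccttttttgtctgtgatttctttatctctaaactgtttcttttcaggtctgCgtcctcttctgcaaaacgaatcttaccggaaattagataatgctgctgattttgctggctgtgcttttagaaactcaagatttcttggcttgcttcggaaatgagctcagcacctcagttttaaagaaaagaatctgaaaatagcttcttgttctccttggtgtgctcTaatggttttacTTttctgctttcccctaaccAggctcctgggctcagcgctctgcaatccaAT
The 2 copies are identical at 293 of 300 bases (97.7%) of this window, most of which lies before the transcript. The transcribed sequences were not compared. How the authors' counting treated reads that match more than 1 place, and whether it used strand, are not stated in these sources. Counts of Mid1 and G530011O06Rik in their shared interval cannot be told apart without strand, and all 3 genes are given as uncertain in their origin.

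Mid1 was at 5.48 CPM (4.89 to 6.13) in knockout and 80.5 CPM (77.7 to 83.4) in wild-type cells, a log2 difference of -3.65. Its highest single cell held 163 CPM in knockout and 544 CPM in wild type, and 77 of 90 knockout cells had no count against 26 of 78 wild-type cells. G530011O06Rik was at 10.7 CPM (9.85 to 11.6) and 86.7 CPM (83.8 to 89.7), with a log2 of -2.91. Its highest cells held 262 and 733 CPM, and 81 of 90 knockout and 36 of 78 wild-type cells had no count. Erdr1 was at 6.08 CPM (5.46 to 6.76) and 38.3 CPM (36.4 to 40.3), with a log2 of -2.47, and its medians over cells were 0 and 24.8 CPM. Counts of all 3 genes were seen in 3 of 90 knockout cells (3.33%, Clopper-Pearson interval 0.693 to 9.43) and in 33 of 78 wild-type cells (42.3%, 31.2 to 54), and counts of none in 46 knockout and 3 wild-type cells. In gated cells the log2 differences were -3.27 for Mid1, -4.31 for G530011O06Rik and -2.35 for Erdr1. The nearest measured genes on the other side did not share the difference: Hccs had a log2 of 0.34 and Msl3 of 0.51, and Arhgap6 and Asmt had no count in either group. Genes of the male-specific part of Y (Ddx3y, Uty, Kdm5d, Eif2s3y) were seen in 55 of 90 knockout and 58 of 78 wild-type cells and Xist in 0 of 90 and 0 of 78.

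Cd74, the invariant chain that escorts MHC class II molecules, was lower in knockout cells, and most cells of either group had no count of it. It was at 14.5 CPM (13.5 to 15.5) in knockout and 121 CPM (118 to 125) in wild-type cells, a log2 difference of -2.98. The median over cells was 0 in both, and the highest cell held 383 CPM in knockout and 2112 CPM in wild type. After thinning it was detected in 8.89% of knockout (3.92 to 16.8) and 28.2% of wild-type cells (18.6 to 39.5), and 80 of 90 and 47 of 78 cells had no count at all. Its gated log2 was -3.09. Of 15 MHC class II genes 10 were measured, 0 higher and 4 lower, with a median log2 of -0.34. Over all measured genes 9.71% were higher and 10.09% lower, and of those under 100 CPM in both groups 24.6% were called. The other 3 lower ones were the class II chain H2-Ab1 (3.51 against 13.3 CPM, log2 -1.67) and the loading factors H2-Ob (log2 -1.42) and H2-DMb1 (log2 -1.15), and in gated cells these 3 had log2 differences of -0.44, -0.26 and 0.10. Cd74 and H2-Ab1 were seen together in 1 of 90 knockout and 5 of 78 wild-type unselected cells. In gated cells it was the other way, with 10 of 76 knockout and 8 of 90 wild-type cells. Cd74 alone was detected after thinning in 14.5% of knockout and 22.2% of wild-type gated cells. The class II chain H2-Aa was seen in 0 cells of both groups, which at 3 cells of each total allows a share of cells with a count of up to 3.33% in knockout and 3.85% in wild type, and the class II regulator Ciita was likewise at 0.

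Haemoglobin RNA differed in the same direction. The beta chain gene Beta-s was at 0.369 CPM (0.228 to 0.564) in knockout, all of it in 1 cell, and at 82.1 CPM (79.3 to 85) in wild-type cells, with 44.2% of it in 1 cell. Any of 4 haemoglobin genes was seen in 2 of 90 knockout and 18 of 78 wild-type unselected cells, and in 21 of 76 knockout and 40 of 90 wild-type gated cells. Of the 9 red blood cell markers 2 were measured and both were lower, and their summed level per cell ranged from 0 to 36.8 CPM in knockout and from 0 to 2259 CPM in wild-type cells. The haem synthesis enzyme Alas2 was the other measured one (0.457 against 30.0 CPM). The part of red blood cell RNA in the other differences was not tested.

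The 15 most raised genes by both summaries were led by Nek7, a kinase of mitosis and of the inflammasome, at 192 CPM in knockout and 24.4 CPM in wild-type cells (log2 2.92). Over single cells its median was 15.4 CPM in knockout and 2.41 CPM in wild type and its maximum 1580 and 560 CPM, so the ranges overlap and the knockout cell was higher in 50.0% and lower in 22.5% of pairs. Its gated log2 was 0.18. Next came the purine enzyme Adssl1 (log2 2.20), the vesicle coat subunit Ap3m1 (1.97), Gm4980 (1.96), D2Ertd750e (1.92, but -4.26 without the cells with 5 or more G2/M genes), the huntingtin gene Htt (1.90), the helicase Ddx24 (2.04) and Plekha2 (2.13). The myeloid transcription factor Runx1 was at 68.1 CPM in knockout and 20.0 CPM in wild-type cells (log2 1.72, gated log2 -0.23), and the G protein subunit Gnai3 had a log2 of 1.85. The remaining ones were Fam13b, A430005L14Rik, Ankrd13a, the histone methyltransferase Ehmt1 and 1810058I24Rik, with log2 differences from 1.70 to 2.21. None of these 15 was also called higher in gated cells, where 9.30% of all measured genes were, and a count of 0 of 15 is near that share. Their gated log2 values ran from -1.54 for Fam13b to 0.64 for Ankrd13a.

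Of the 15 most lowered genes 6 were lower in gated cells as well, where 7.96% of all measured genes were lower. They were Mid1, Cd74, G530011O06Rik, Erdr1, Trem2 and Pot1a, a component of the telomere cap (19.7 against 86.1 CPM, log2 -2.07, gated log2 -1.71). In gated cells Pot1a was detected in 9.21% of knockout and 10% of wild-type cells, so its detection there was alike. The other 9 of the 15 were not called in gated cells, with gated log2 values between -0.56 for Tagap and 0.30 for Ccdc134. Pigb, an enzyme of the GPI anchor pathway, was at 4.46 CPM in knockout and 43.8 CPM in wild-type cells (log2 -3.03). The GTPase Rap2c was at 10.2 and 59.7 CPM (log2 -2.44), and the BMP signal transducer Smad5 had a log2 of -2.31. The deubiquitinase Usp28, 1110059E24Rik and 2310021P13Rik were also in the set, at log2 differences of -2.41, -2.53 and -2.23. In Pigb and Usp28 single wild-type cells held 27.5% and 25.6% of the wild-type counts, against 3.02% in Trem2.

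The homeostatic and lysosomal programmes were at like levels in both genotypes. All 25 homeostatic genes were measured, 0 were higher, 1 was lower (Trem2 itself), and the median log2 was -0.04. Siglech, a lectin of microglia (1748 against 2435 CPM, log2 -0.48), and Mertk, a receptor for dying cells (log2 -0.37), had the widest differences beside it. In gated cells 9 of the same 25 genes were lower and the median was -0.75, a difference between gates that was not tested. Of 36 measured lysosomal genes 0 were called, with a median of 0.11 and a range from -0.46 (Ctsh, a cysteine protease) to 0.76 (Scarb2, a membrane receptor). Ribosomal protein genes (30 measured), glycolysis (15), complement and phagocytic receptors (18), Fc gamma receptors (5) and cytoskeleton genes (21) also had 0 called members, and oxidative phosphorylation had 1 higher of 28. Of all measured genes 19.8% were called in either direction, but of those at 100 CPM or more 5.43%. A count of 0 in a short list of genes at high levels is therefore not read as a result.

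Genes reported to mark disease-associated microglia and the microglia of proliferative regions were taken as 1 list. Of 24 measured genes 3 were higher, 1 was lower, and the median was 0.19, beside 9.71% higher and 10.09% lower of all measured genes. The cystatin Cst7 was at 22.4 CPM in knockout and 2.26 CPM in wild-type cells (log2 2.84), with 13 of 90 and 5 of 78 cells holding a count. The chemokine Ccl6 was at 160 and 69.2 CPM (log2 1.20) and the pyrophosphate transporter Ank at 57.7 and 20.9 CPM (log2 1.42). The glycoprotein Gpnmb was at 85.2 CPM in knockout and 216 CPM in wild-type cells (log2 -1.33), but 1 wild-type cell held 74.9% of the wild-type counts and 1 knockout cell 45.4% of the knockout counts. Spp1, encoding osteopontin, rested on few cells as well (1560 against 936 CPM, log2 0.74, with 40.1% and 50.9% of counts in 1 cell). Among lipid genes 1 of 15 was lower (the transporter Abca7, log2 -1.31) and 0 were higher. Sterol synthesis had 3 higher (Nsdhl, Srebf2 and Sqle, log2 2.17, 1.48 and 1.35, with Srebf2 at -0.21 without the cells with 5 or more G2/M genes) and 2 lower (Tm7sf2 and Scap, log2 -1.89 and -1.63) of 16, with a median of 0.27. Sqle was also higher in gated cells (log2 1.21).

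**Figure D4:**
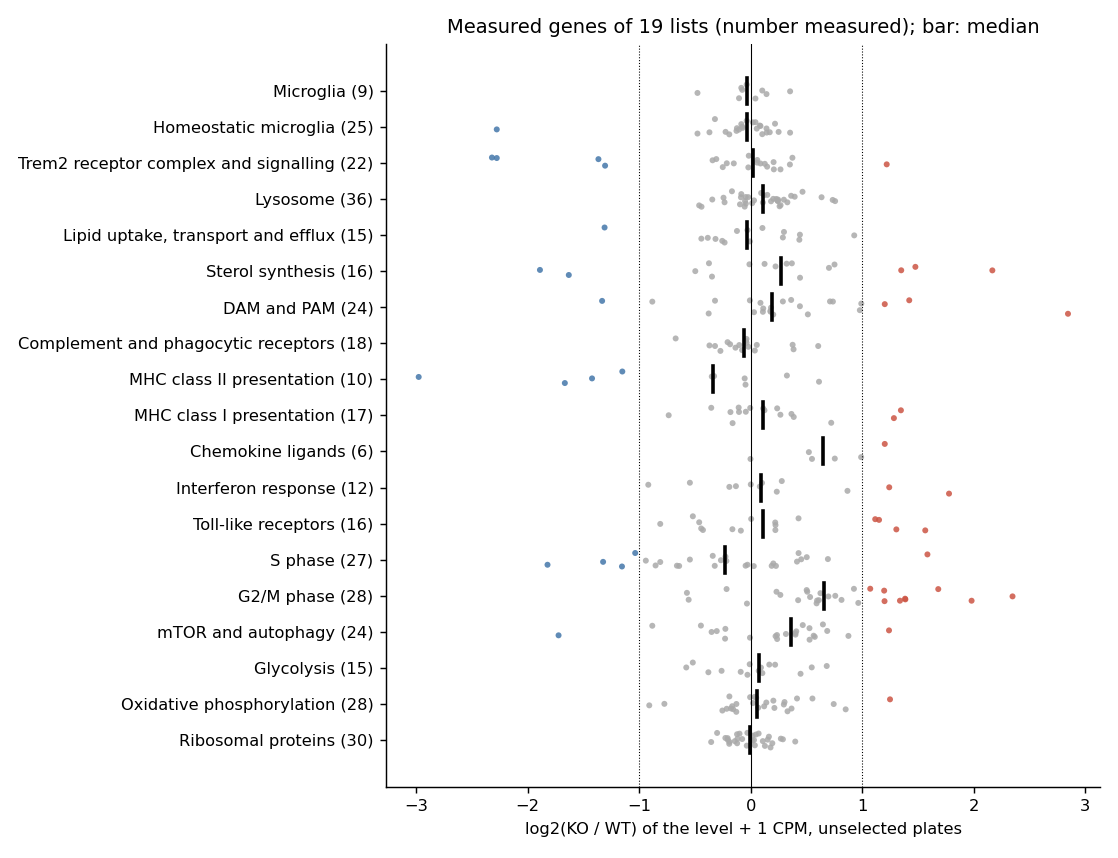
log2 of knockout over wild type in unselected cells for the measured genes of 19 lists; each point is a gene, red and blue are genes at least 2-fold higher or lower, black bars are list medians, dotted lines mark 2-fold, and DAM and PAM stands for the list of disease-associated and proliferative-region microglia. Homeostatic, lysosomal and ribosomal genes lie around 0 with medians of -0.04, 0.11 and -0.01, and G2/M phase genes are shifted to a median of 0.66.

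Of 28 G2/M genes, all measured, 9 were higher and 0 lower, with a median of 0.66, and the gated values were 9 higher and a median of 0.52. The spindle checkpoint activator Cdc20 was at 208 CPM in knockout and 40.1 CPM in wild-type cells (log2 2.35), the checkpoint kinase Bub1b at 93.6 and 23 CPM (log2 1.98), the cyclin Ccnb2 at 168 and 51.8 CPM (log2 1.68) and the centromere histone Cenpa at 116 and 43.6 CPM (log2 1.39). The share of cells with 5 or more G2/M genes after thinning was 34.4% (31 of 90) in knockout and 35.9% (28 of 78) in wild type. Among those cells the summed G2/M level had a median of 4532 CPM (175 to 23289) in knockout and 1841 CPM (82.9 to 18226) in wild type, so the ranges overlap. The class is a cut in a count of genes, and 3 knockout and 2 wild-type cells lay just below it with 4 genes. Without the cells above the cut the list median was -0.44, but those cells were chosen by these same genes. The cells left had a median summed G2/M level of 20.7 CPM in knockout and 22.8 CPM in wild type. This value is therefore no separate result. Of 27 S phase genes 1 was higher and 4 were lower, with a median of -0.23, beside 9.71% higher and 10.09% lower of all measured genes. The methylation factor Uhrf1 was higher (log2 1.58, but -2.33 without the cells with 5 or more G2/M genes), and the lower ones were the nucleotide enzyme Dut (-1.82), the clamp loader Rfc4 (-1.32), Gins2 (-1.16) and the helicase subunit Mcm5 (-1.04). Cells with 5 or more S phase genes made up 36 of 90 knockout and 45 of 78 wild-type cells. In gated cells 11 of the S phase genes were higher and 2 lower.

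Lists of innate immunity receptors and signals are set beside 9.71% higher and 10.09% lower of all measured genes. Of 16 Toll-like receptor and adaptor genes 4 were higher and 0 lower: Tlr4 (61 against 20.0 CPM, log2 1.56), Tlr6 (1.31), Tlr3 (1.15) and the kinase Irak4 (1.12). None of the 4 was called in gated cells. Of 10 cytokine and inflammasome genes 2 were lower, Il1a (37.3 against 99.2 CPM, log2 -1.39) and the inhibitor Nfkbiz (-1.10, but 0.75 without the cells with 5 or more G2/M genes). Of 12 interferon response genes Irf9 (log2 1.24) and Xaf1 (1.78) were higher. Of 6 measured chemokines Ccl6 alone was called, and the median was 0.65. Antioxidant and iron genes had 1 higher, the mitochondrial dismutase Sod2 (106 against 32.7 CPM, log2 1.66), and 3 lower, namely Txnrd1 (log2 -1.25), Gclm (-1.15) and catalase, Cat (-1.03), of 18.

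Detection per cell was lower in knockout cells for most genes. After thinning, 1 gene (0.013%) was detected in at least 20 percentage points more knockout cells and 264 genes (3.43%) in at least 20 points fewer, and the median difference over all measured genes was -5.56 points. With 60 knockout and 60 wild-type cells matched on the number of detected genes (medians 2289 and 2320), an alternative added after seeing the data, the median difference was 0, with 77 genes at 20 points or more and 62 at 20 points or fewer. Matching on detected genes itself brings the median difference towards 0, so the matched cells are given for single genes only. Among the matched cells Erdr1 was detected in 30.0% of knockout and 71.7% of wild-type cells (26.7% and 74.4% in all cells), Mid1 in 10.0% and 51.7%, Trem2 in 66.7% and 98.3%, and G530011O06Rik in 11.7% and 33.3%, the last a smaller gap than the 10% and 46.2% of all cells. The telomerase-associated gene Tep1 (41.7% and 71.7%), the amino acid transporter Slc7a7 (31.7% and 58.3%) and the ubiquitin-activating enzyme Uba1 (23.3% and 48.3%) were also among the 10 largest losses in all cells. The adaptor Sla had a log2 difference of -0.46 with detection of 42.2% against 74.4% in all cells. The gene with the largest gain was 1810058I24Rik (36.7% against 15.4% in all cells), followed by the RNA polymerase subunit Polr2e (43.3% against 24.4%, log2 1.33) and the nucleotidase Entpd7 (33.3% against 15.4%, log2 0.41).

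Levels varied more from cell to cell in knockout than in wild type, and less so once 7 cells were left out. For 121 genes detected in 90% or more of the cells of both groups, the standard deviation over cells of log2(CPM + 1) had a median of 2.41 in knockout and 1.80 in wild type, and 104 genes (86.0%) had the larger value in knockout. None of the 121 was called by its level. The largest gaps were those of Ctsz and Ctss, both cathepsins, with 2.86 against 0.952 and 2.51 against 0.611, of the complement chains C1qb (2.26 against 0.386) and C1qc, and of Malat1. Without the 5 knockout and 2 wild-type cells that held fewer than 7 microglia markers, again an alternative added after seeing the data, the medians were 1.71 and 1.69 and 72 of 121 genes were larger in knockout. C1qb then had 0.419 against 0.382 and Ctss 0.722 against 0.604, while Ctsz kept 2.1 against 0.920. In the other direction Marcks, a substrate of protein kinase C at the membrane, varied less in knockout (1.53 against 2.67, and 1.20 against 2.39 without those cells), as did Rpl35, Tubb5, Rps19 and the creatine kinase Ckb.

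**Figure D5:**
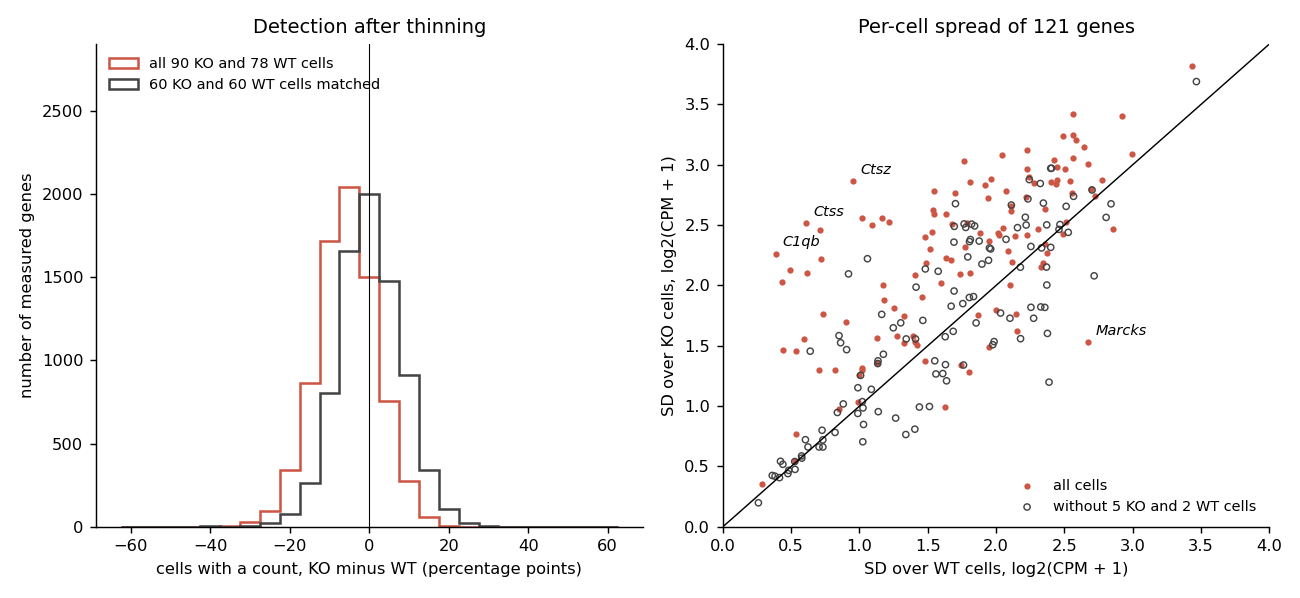
Left, number of measured genes by the difference in percent of cells with a count (knockout minus wild type, thinned cells), for all 90 and 78 cells in red and for 60 and 60 matched cells in grey. Right, standard deviation over knockout cells against wild-type cells of log2(CPM + 1) for 121 genes, filled with all cells and open without 5 knockout and 2 wild-type cells; the median difference in detection is -5.56 points in all and 0 in matched cells, and the points move towards the diagonal without the 7 cells.

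Neighbours of Trem2 on chromosome 17 were tallied by distance. Within 5 Mb, 42 other genes were measured, 2 of them higher and 10 lower (28.6% called, against 19.8% of all measured genes with a position). Most of these neighbours were at low levels, and of all measured genes under 100 CPM in both groups 24.6% were called. Only Taf8, a subunit of the general transcription factor TFIID, was called the same way in gated cells (12.4 against 37.3 CPM, log2 -1.51, gated log2 -1.59). Cul9 (log2 -2.15, gated log2 1.07) and Tmem63b (log2 1.64, gated log2 -1.12) were called the opposite way there. Treml2, which starts 46.9 kb before Trem2 and is a receptor of the same family, was at 9.44 CPM in knockout and 20.6 CPM in wild-type cells (log2 -1.05, gated log2 0.14).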

How the data were processed

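Single unselected microglia of 2 genotypes were compared as deposited. The authors deposited 1 table of raw read counts per gene, with 23337 genes and 92 spike-in RNAs, and the tools named in the submitters' processing notes are HTSeq, Picard, STAR 2.5.3a and Trim Galore 0.4.3, with mm10 as the build. The annotation, the use of strand and the treatment of ambiguous reads are not stated there. Date-like symbols (25) in the table could not be resolved. Cells passing all 3 labelled quality criteria were kept, and 0 passing cells lay below the thinning depth of 100000 gene counts. Cells were sorted singly into wells, and no doublet caller was run. Counts were summed per group with Python 3.11.15 and pandas 2.3.3, scaled to CPM without spike-ins and compared as log2 of CPM + 1, with exact Poisson, conditional binomial and Clopper-Pearson intervals from scipy 1.17.1. Scaling factors for alternatives came from edgeR 4.0.16, and no model was fitted. Alternatives changed scaling, filters, cells and detection; leaving out cells with few microglia markers, the matched cells for detection and spread, thinning before the spread, and the stricter recurrence were added after seeing the data. Fold rules were tested on simulated data.

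Named genes are Trem2, Tyrobp and Cd74, 15 genes in each direction ranked on the weaker of the summed and mean log2 at 20 CPM and 25% detection, the 10 largest gains and losses in detection, the 5 largest differences in spread each way, the 10 highest levels, and members of 43 pathway and cell type lists (755 of 760 symbols matched, with 2 further lists as checks). Members, lists and comparisons were chosen with earlier results of these data known. Some named genes are not reported here. Positions come from GENCODE M21 and the RefSeq table of GRCm38.p6.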

Additional observations from a re-analysis of the deposited data

Results flagged for a closer look

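Among the genes and lists chosen for naming, 5 results lay past 2-fold, or past a list median of 0.5, in opposite directions in the unselected and the gated plates. The Trem2 neighbours Cul9 and Tmem63b, given above for their position, are not among these 5. Over all genes 71 of 707 higher (10.0%) and 78 of 649 lower ones (12%) did so. None of these differences between gates was tested, and each rests on 1 plate per group. Fam13b was higher in unselected knockout cells (log2 2.21) and lower in gated ones (log2 -1.54). Gpnmb, whose protein was used for the gate, was lower in unselected knockout cells (log2 -1.33) and higher in gated ones (log2 1.32), and 1 wild-type unselected cell held 74.9% of its counts. The lipid transporter Abca7 had log2 differences of -1.31 and 1.31, at no more than 20.5 CPM in unselected cells. The thioredoxin reductase Txnrd1 had -1.25 and 1.32. The median of the chemokine ligands was 0.65 over 6 measured genes in unselected cells and -1.39 over 8 measured genes in gated cells, where 5 were lower.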

How the results depend on the processing

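Trem2 stayed at least 2-fold lower under every alternative run for it. Its log2 was -2.33 with trimmed-mean (TMM) and -2.33 with median-of-ratios scaling, -2.77 with spike-in scaling, -2.24 with cells thinned before summing, -2.21 with failing cells included and -2.35 without cells with 5 or more G2/M genes. Spike-in scaling moved the median of all genes from 0.03 to -0.45, and counts to 354 higher and 1626 lower genes, with 17.9% of calls higher. Calls also numbered 1601 higher and 1310 lower with no detection filter, 145 and 178 at 20 CPM and 25% detection, and 2271 and 1743 with no filter. Lists with a median of 0.5 or more in size numbered 2 (G2/M phase and chemokine ligands), 13 with spike-in scaling, 1 with mean CPM per cell and 1 at 20 CPM. Genes detected in 20 points fewer knockout cells were 776 without thinning and 28 at 5 counts, where 5 had 20 points more, and matched cells gave 62 and 77. With both comparisons at 20 CPM and 25% detection, 6 of 136 higher and 11 of 125 lower genes recurred in gated cells. Without the cells with 5 or more G2/M genes some values turned: G2/M phase to a median of -0.44, D2Ertd750e to -4.26, Cblb to 0.96, Srebf2 to -0.21, Uhrf1 to -2.33, Nfkbiz to 0.75 and B430306N03Rik, a neighbour of Trem2, to 0.29 (0.087 in matched cells). The G2/M median is no separate result, because the cells left out were chosen by the same genes. With 1 sample per group no replicate could be left out. No paired analysis was possible because each group is 1 sample. Of genes under 100 CPM in both groups 24.6% were called, and the part of read depth or of few cells per gene in this was not tested.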

Other observations

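Other lists with 10 or more measured genes follow for unselected cells. Over all measured genes 9.71% were higher and 10.09% lower, and shares near these are not read as results. Of 24 genes of mTOR and autophagy 1 was higher (Sesn1, a sestrin induced by stress, at 208 against 87.3 CPM, log2 1.24) and 1 lower (Wipi2, a scaffold of the autophagosome, log2 -1.72), with a median of 0.36. Of 18 transcription factors of microglial identity 2 were higher, Runx1 and Sall3 (log2 1.59), while Sall1 (329 against 338 CPM), Irf8 (log2 0.05) and Mef2c (log2 0.20) were not called. Of 17 genes of MHC class I presentation H2-M3 (log2 1.35) and Tapbpl (log2 1.28) were higher, and B2m, the shared light chain, was at 1288 and 1192 CPM. Of 12 secreted growth factor and matrix genes the annexin Anxa2 was higher (62.1 against 10.9 CPM, log2 2.41, gated log2 1.00).

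Of 20 measured genes that lie near human Alzheimer risk loci Trem2 and Abca7 were lower and 0 were higher, with a median of -0.06. Of 2 measured genes that differ between C57BL/6 substrains 0 were called. Nnt, which carries a deletion in C57BL/6J, had counts in both groups (167 and 86.8 CPM). Whether the deletion was present cannot be read from counts per gene, so these counts do not tell the substrain.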
